A study of Owenia fusiformis with 14 samples.

Results

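Among the 27042 genes of the annelid *Owenia fusiformis* quantified in these libraries, 76 were set apart between rBMP4-treated and mock-treated blastulae while their mean level after rActivin A stayed near that of mock. Of these 76 genes, 59 were higher and 17 were lower after rBMP4. The genes are known here by identifier only, since none of the sources used pairs any of the 76 identifiers with a gene name, so no function is given for them. They were chosen on gene CPM, the estimated counts of all transcripts of a gene per 1000000 counts of the library. A gene was taken when the lower library of its higher pair was at least 1.5 times the upper library of the other pair and the higher pair lay at 5 CPM or more, which is called the separation below. Its mean rActivin A level also had to lie between 0.67 and 1.5 times its mean mock level. Genes whose SB431542 pair lay at least 1.5-fold below the 0.4% DMSO pair were then dropped, and the 6 BMP pathway genes were to be left out. Because these values chose the genes, the levels after rBMP4, rActivin A and SB431542 are given below as a description, with no test.

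BMPs are secreted ligands that bind paired type I and type II serine/threonine kinase receptors, which phosphorylate SMAD1/5/8, and the antagonist Chordin binds the ligands outside the cell. In many bilaterians a gradient of this signal sets the dorsoventral axis of the early embryo. Activin and Nodal ligands belong to the same superfamily but act through other type I receptors and through SMAD2/3. DMH1 inhibits BMP type I receptors, and SB431542 inhibits the type I receptors of the Activin and Nodal branch.

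The series holds 14 mRNA libraries of whole blastulae collected at 6 h post fertilisation (hpf), 2 replicates in each of 7 conditions. From 4 to 6 hpf the embryos were kept in zebrafish BMP4 (rBMP4, 1000 ng/µl as labelled), Activin A (rActivin A, 75 ng/µl as labelled), mock solution, 20 µM DMH1 or 0.2% DMSO. From 3 to 6 hpf they were kept in 40 µM SB431542 or 0.4% DMSO. The ligand doses carry another unit elsewhere in the study's material, so their unit is uncertain, and the sample labels spell the SB431542 groups SB435421. DMSO is the solvent of both inhibitors, and mock embryos received the solvent of the ligands. Nothing in the labels says whether the replicates came from separate cultures, so p-values measure only the spread between these libraries, which may be technical. Depth ranged from 9416790 estimated counts (rActivin A, replicate 2) to 59916462 (DMH1, replicate 1). The sources used here pair names with identifiers for the 6 BMP pathway genes only, so the label of whole embryos was not checked against marker genes. In bulk RNA, fewer cells of a type and less RNA per cell cannot be told apart.

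The rule narrowed the genes in steps. The rBMP4 and mock pairs were set apart in 370 genes. Of the 11448 genes at 5 CPM or more in either pair, 182 were higher after rBMP4 (1.59%) and 188 were lower (1.64%). The rActivin A window kept 67 of the higher and 21 of the lower genes, and 8 and 4 of these were dropped as lower after SB431542. The last step removed 0 genes. The ligand gene bmp2/4 (OFUSG12159) and the antagonist gene chordin (OFUSG13105) were both set apart downwards between rBMP4 and mock, but their mean rActivin A levels were 0.409 and 0.249 times mock, outside the window. For comparison, 86 genes were higher and 165 were lower after both ligands, and 31 were set apart by rBMP4 one way while rActivin A lay outside the window the other way. The higher genes therefore made up the larger share of what rBMP4 alone set apart, while lower genes made up the larger share of what both ligands set apart.

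The separation of the 59 higher genes ran from 1.51 to 48.9, with a median of 2.00. It was at least 2 in 30 of them, at least 4 in 13 and at least 10 in 3 (OFUSG04918, OFUSG18388 and OFUSG26877). The 17 lower genes were set apart less widely, from 1.52 to 4.47 with a median of 1.65, and 2 of them (OFUSG15511 and OFUSG15696) reached 2. In 53 of the 59 higher genes both rBMP4 libraries lay above all 12 other libraries, and in 8 of the 17 lower genes both lay below all 12. The rule itself set rBMP4 apart from mock and held mean rActivin A near mock, so part of this order was fixed by the choice. The share of all genes with it was not counted. Just inside the limit for higher genes were OFUSG23395, with a separation of 1.51, and OFUSG23539, with 1.54, and just outside it were OFUSG23549 with 1.496 and OFUSG17816 with 1.49. For lower genes OFUSG03084 and OFUSG16218 were just inside, both at 1.52, and OFUSG07468 (1.48) and OFUSG00634 (1.47) were just outside. Many of the 76 genes thus sit close to a limit that neighbouring genes miss narrowly.

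**Figure D1:**
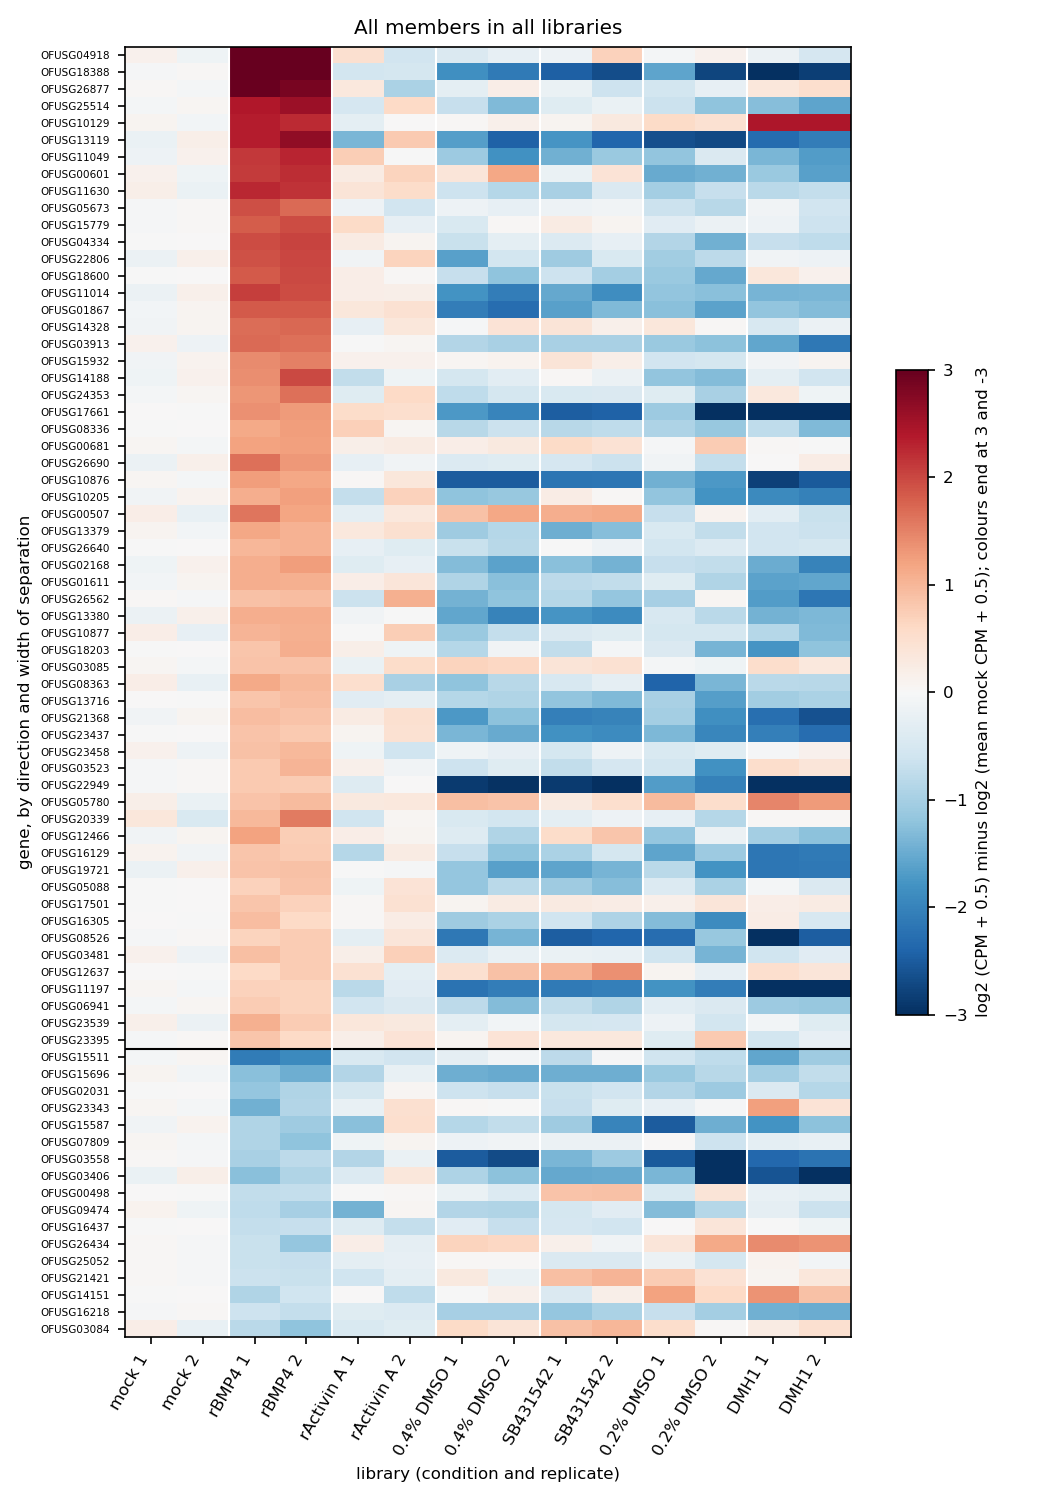
Levels of all 76 genes (rows, sorted by direction and separation, with the 59 higher genes above the black line) in all 14 libraries (columns), as log2 (CPM + 0.5) minus the same for the mean of mock, with colours ending at 3 and −3. The rBMP4 columns are red for the higher genes, and in many of those rows the DMSO, SB431542 and DMH1 columns are blue, below mock.

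OFUSG18388 combined a wide separation with a high level. Its level was 38.9 and 41.4 CPM in mock and 861 and 808 CPM after rBMP4. It was 27.1 and 27.9 CPM after rActivin A, 10.9 and 8.83 CPM in 0.4% DMSO, 6.91 and 5.89 CPM after SB431542, 13.0 and 5.54 CPM in 0.2% DMSO and 4.14 and 5.20 CPM after DMH1. The rBMP4 pair stood far above every other library, and the mock pair in turn stood above all 10 remaining libraries. The fitted log2 fold change of rBMP4 against mock was 4.35 (SE 0.111, n = 2 libraries per group), and that of rActivin A against mock was −0.57 (SE 0.109). Scaled for transcript length, its mean level went from 12.4 TPM in mock to 256 TPM after rBMP4.

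The widest separation belonged to a gene close to the counting floor outside rBMP4. OFUSG04918 had 16.5 and 15.0 CPM after rBMP4 and 0.306 and 0.174 CPM in mock, which are 8 and 4 counts. In the remaining 10 libraries it lay between 0 and 0.704 CPM. Only the rBMP4 pair stood apart, with a fitted log2 fold change of 5.95 (SE 0.539) that rests on few mock counts. OFUSG26877 showed the same picture, at 7.02 and 6.46 CPM after rBMP4, 0.497 and 0.434 CPM in mock and at most 0.863 CPM in any other library (log2 fold change 3.81, SE 0.583).

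Other widely separated genes differed in what the other libraries did. OFUSG25514 went from 2.21 and 2.44 CPM in mock to 14.4 and 16.4 CPM after rBMP4, and its rActivin A replicates lay at 1.5 and 3.77 CPM. OFUSG10129 went from 2.37 and 2.04 CPM to 13.3 and 12.3 CPM, and its only other libraries at such levels were those of DMH1. OFUSG13119 went from 6.16 and 8.03 CPM to 38.5 and 47.6 CPM. Here the rActivin A replicates were far apart, at 2.42 and 12.6 CPM, one below and one above both mock libraries, and the 8 DMSO and inhibitor libraries lay between 0.660 and 1.92 CPM, all below mock. A further 7 genes with a separation of at least 4, from OFUSG11049 (4.67) to OFUSG22806 (4.04), lay between 1.15 and 10.2 CPM in mock and up to 44.5 CPM after rBMP4. The most abundant of them was OFUSG11630, at 10.2 and 7.73 CPM in mock, 44.5 and 42.3 CPM after rBMP4 and 11.9 and 13.4 CPM after rActivin A. Its 8 DMSO and inhibitor libraries, at 4.14 to 6.55 CPM, all lay below mock. OFUSG00601 departed from that order, with 2.03 and 1.61 CPM in mock, 9.36 and 10.3 CPM after rBMP4, 2.50 and 4.66 CPM in 0.4% DMSO and 0.311 and 0.352 CPM in 0.2% DMSO, so that its DMSO controls lay on either side of mock. OFUSG11630 and OFUSG00601 were picked after their values were seen.

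Among the genes with the highest mean CPM over all libraries, the differences were smaller in ratio but rested on more counts. OFUSG17661 was at 279 and 277 CPM in mock, 724 and 676 CPM after rBMP4 and 410 and 395 CPM after rActivin A. Its rActivin A mean, 1.45 times mock, was near the upper end of the window, and both rActivin A libraries lay above both mock libraries. OFUSG13380 was at 349 and 441 CPM in mock, 841 and 846 CPM after rBMP4 and 370 and 394 CPM after rActivin A, so its rActivin A and mock pairs overlapped. OFUSG01611 was at 157 and 178 CPM in mock, 360 and 351 CPM after rBMP4 and 193 and 214 CPM after rActivin A. The fitted log2 fold changes of rBMP4 against mock were 1.30 (SE 0.093) for OFUSG17661, 1.07 (SE 0.123) for OFUSG13380 and 1.06 (SE 0.107) for OFUSG01611. On the length-scaled measure, OFUSG17661 had the highest mean level of these 3 genes after rBMP4, 499 TPM, against 152 TPM for OFUSG13380 and 90.6 TPM for OFUSG01611.

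**Figure D2:**
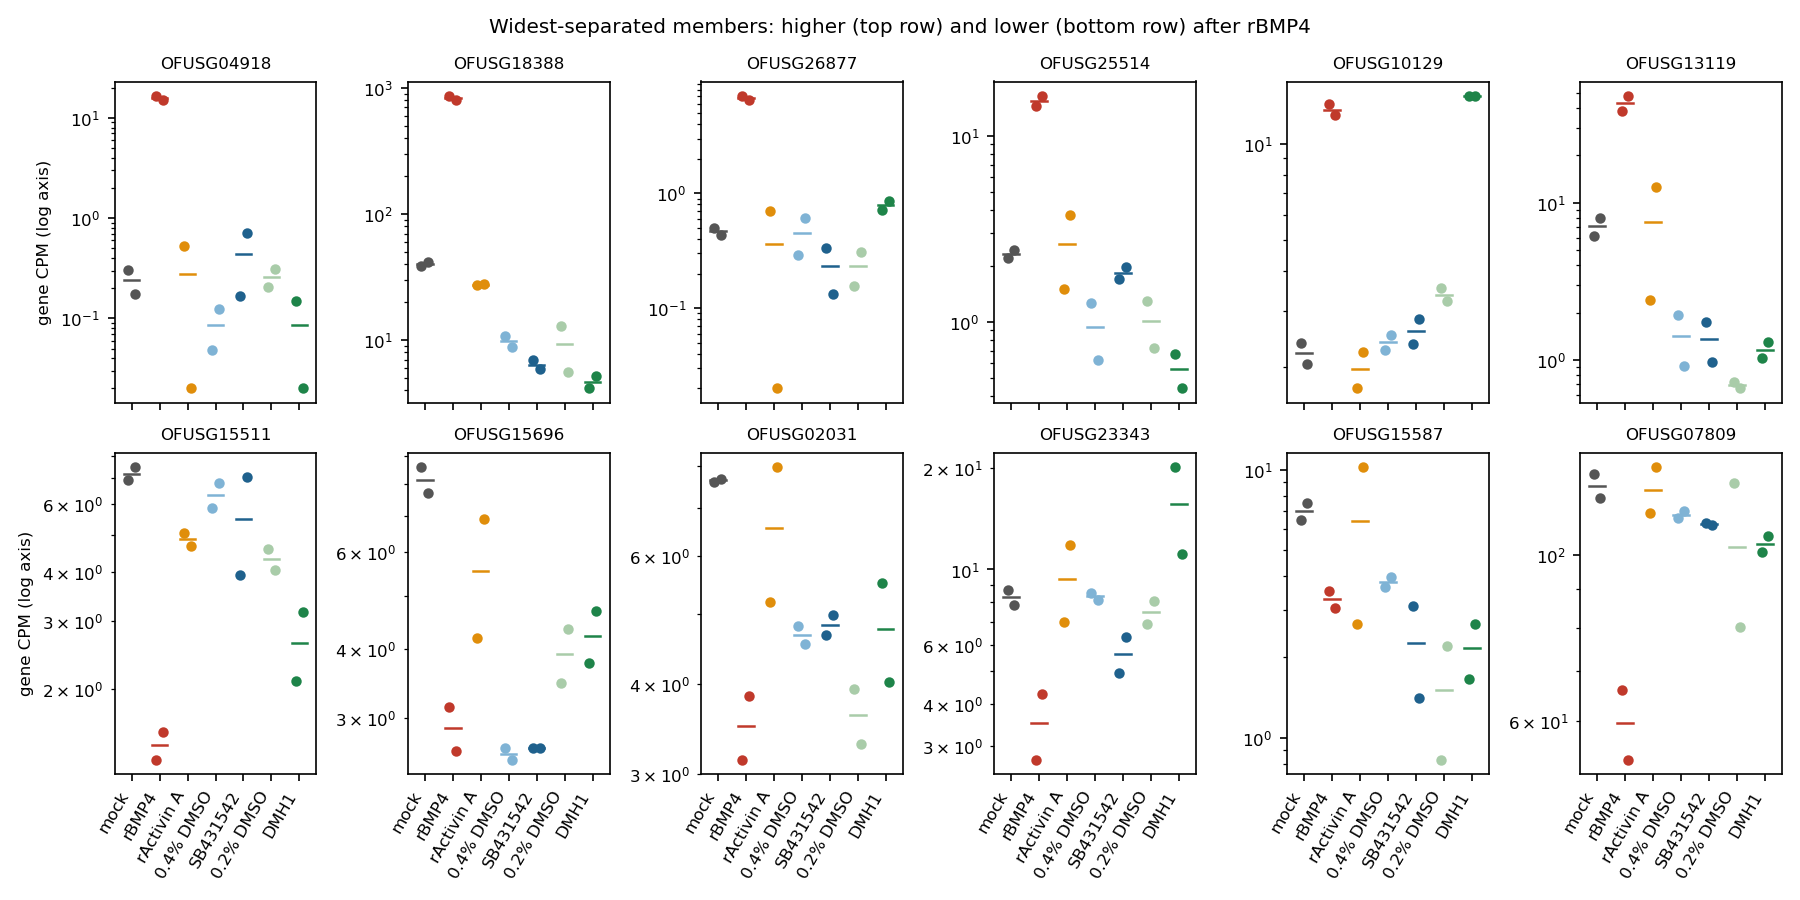
Gene CPM (log axes, a different range in each panel) of the 6 higher genes (top row) and the 6 lower genes (bottom row) with the widest separation, by condition, with points for the 2 libraries, lines for their mean and a value of 0 drawn at 0.02 CPM. The rBMP4 points of OFUSG18388, at 861 and 808 CPM, stand above all other conditions, and in OFUSG10129 the DMH1 points reach the level of rBMP4.

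The genes lower after rBMP4 were led by OFUSG15511, whose level was 6.93 and 7.47 CPM in mock and 1.31 and 1.55 CPM after rBMP4. Its rActivin A libraries lay at 5.07 and 4.67 CPM, and every other library was at 2.10 CPM or more, so the rBMP4 pair was the lowest of all conditions (log2 fold change −2.35, SE 0.310). OFUSG15696 went from 8.57 and 7.69 CPM in mock to 3.14 and 2.61 CPM after rBMP4. In that gene 0.4% DMSO (2.64 and 2.51 CPM) and SB431542 (2.64 and 2.64 CPM) overlapped the rBMP4 pair, so the mock level was the one that stood out. OFUSG02031 went from 7.61 and 7.69 CPM to 3.14 and 3.85 CPM, and in 0.2% DMSO it lay at 3.94 and 3.30 CPM, within reach of rBMP4 as well.

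The remaining named lower genes had more counts or more uneven replicates. OFUSG07809 was at 128 and 119 CPM in mock and 66.1 and 53.3 CPM after rBMP4, with all 10 other libraries between 80.2 and 131 CPM and above the rBMP4 pair. OFUSG25052, the lower gene with the highest mean CPM, was at 761 and 735 CPM in mock, 473 and 462 CPM after rBMP4 and 611 and 629 CPM after rActivin A (log2 fold change of rBMP4 −0.71, SE 0.075, and of rActivin A −0.30, SE 0.075). Its rActivin A pair therefore lay between the other 2 pairs without overlap, although inside the window. OFUSG16437 was at 82.1 and 84.0 CPM in mock, 50.1 and 51.1 CPM after rBMP4 and 63.6 and 50.7 CPM after rActivin A, so 1 rActivin A library was at the rBMP4 level. OFUSG23343 (8.69 and 7.86 CPM in mock, 2.74 and 4.29 CPM after rBMP4) and OFUSG15587 (6.47 and 7.51 CPM, 3.54 and 3.05 CPM) were lower in level, and OFUSG15587 had rActivin A replicates at 2.65 and 10.2 CPM.

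The window on the mean of rActivin A does not hold each replicate to it. The ratio of mean rActivin A to mean mock ran from 0.680 to 1.49 in the higher genes, with a median of 1.11, and from 0.677 to 1.14 in the lower genes, with a median of 0.791. Both rActivin A replicates lay inside the window in 36 of 59 higher and 9 of 17 lower genes. The 2 rActivin A replicates were more than 1.5-fold apart in 22 higher and 8 lower genes. These counts were 2 and 0 for mock and 2 and 1 for rBMP4, but the rule favours close replicates in those groups. For 0.2% DMSO they were 26 and 6, and for DMH1 14 and 4. For 0.4% DMSO they were 13 and 0, and for SB431542 8 and 3. Without rActivin A replicate 1 the rule would have taken 74 genes, 58 of them among the 76, and without replicate 2 it would have taken 75, with 57 shared. In OFUSG26562, an example chosen after its values were seen, rActivin A lay at 2.24 and 8.50 CPM around a mock level of 3.86 and 3.69 CPM.

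The rule dropped genes with the SB431542 pair at least 1.5-fold below the 0.4% DMSO pair (0.964% of all genes), so only pairs set apart upwards could remain. The SB431542 pair was at least 1.5-fold above the 0.4% DMSO pair in 2 of the 31 higher genes at 5 CPM or more in either pair and in 3 of 13 lower genes, beside 0.734% of all genes upwards. The 2 higher genes were OFUSG10205, at 8.04 and 6.91 CPM after SB431542 and 2.64 and 2.82 CPM in 0.4% DMSO, and OFUSG12466, at 6.91 and 8.53 CPM against 3.41 and 2.21 CPM. Both pairs were clear of each other. Of the 3 lower genes, OFUSG00498 was at 46.5 and 47.5 CPM against 22.1 and 19.1 CPM, OFUSG03558 at 10.4 and 12.8 CPM against 4.52 and 3.86 CPM, and OFUSG21421 at 20.6 and 22.5 CPM against 13.4 and 9.38 CPM. These 5 genes were named after their values were seen. OFUSG00498 after SB431542 was higher than in any other condition, while OFUSG03558 still lay below its mock level of 28.4 and 27.1 CPM.

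The controls themselves differed in many of these genes. Of the 38 higher genes at 5 CPM or more in mock or 0.4% DMSO, the mock pair lay at least 1.5-fold above the 0.4% DMSO pair in 23, or 60.5%, while 16.3% of all genes did so. The reverse held for 3 of the 38 (OFUSG00507, OFUSG03085 and OFUSG05780), against 13.5% of all genes. Against 0.2% DMSO the mock pair was above in 17 of 36 (47.2%, all genes 9.57%) and below in 0 of 36 (all genes 10.3%). Mock embryos shared their hours of treatment with the 0.2% DMSO embryos but not with the 0.4% DMSO embryos, and differed from both in solvent. The solvent and any difference in handling between these groups cannot be told apart, and their part in the result was not tested. Because mock chose the genes, these counts are a description too.

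Over the 35 higher genes with a mean mock level of 5 CPM or more, the median ratio of mock to 0.4% DMSO was 2.04 and that of mock to 0.2% DMSO was 2.14. The same medians over all 11410 genes at that level were 1.05 and 0.981. Both mock libraries lay above all 4 DMSO libraries in 40 of the 59 higher genes and below all 4 in 2 (OFUSG05780 and OFUSG17501). The shares of all genes with this order or the next were not counted, so both counts only describe the chosen genes. In 24 of the 59, all mock and rActivin A libraries lay above all 8 DMSO and inhibitor libraries, so that the levels fell into 3 tiers with rBMP4 at the top. OFUSG22949 showed these tiers, at 65.2 and 64.1 CPM after rBMP4, 36.5 and 38.3 CPM in mock, 28.7 and 37.9 CPM after rActivin A and no more than 11.4 CPM in any DMSO, SB431542 or DMH1 library. OFUSG11014 did too, at 123 and 114 CPM after rBMP4, 25.6 and 32.2 CPM in mock, 33.4 and 32.9 CPM after rActivin A and 6.50 to 12.5 CPM in the other 8 libraries. OFUSG10876 (20.4 and 19.1 CPM after rBMP4, 8.57 and 7.95 CPM in mock) lay at 2.74 CPM or less in those 8 libraries. OFUSG22949 is among the named genes, and OFUSG11014 was chosen as an example after its values were seen.

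**Figure D3:**
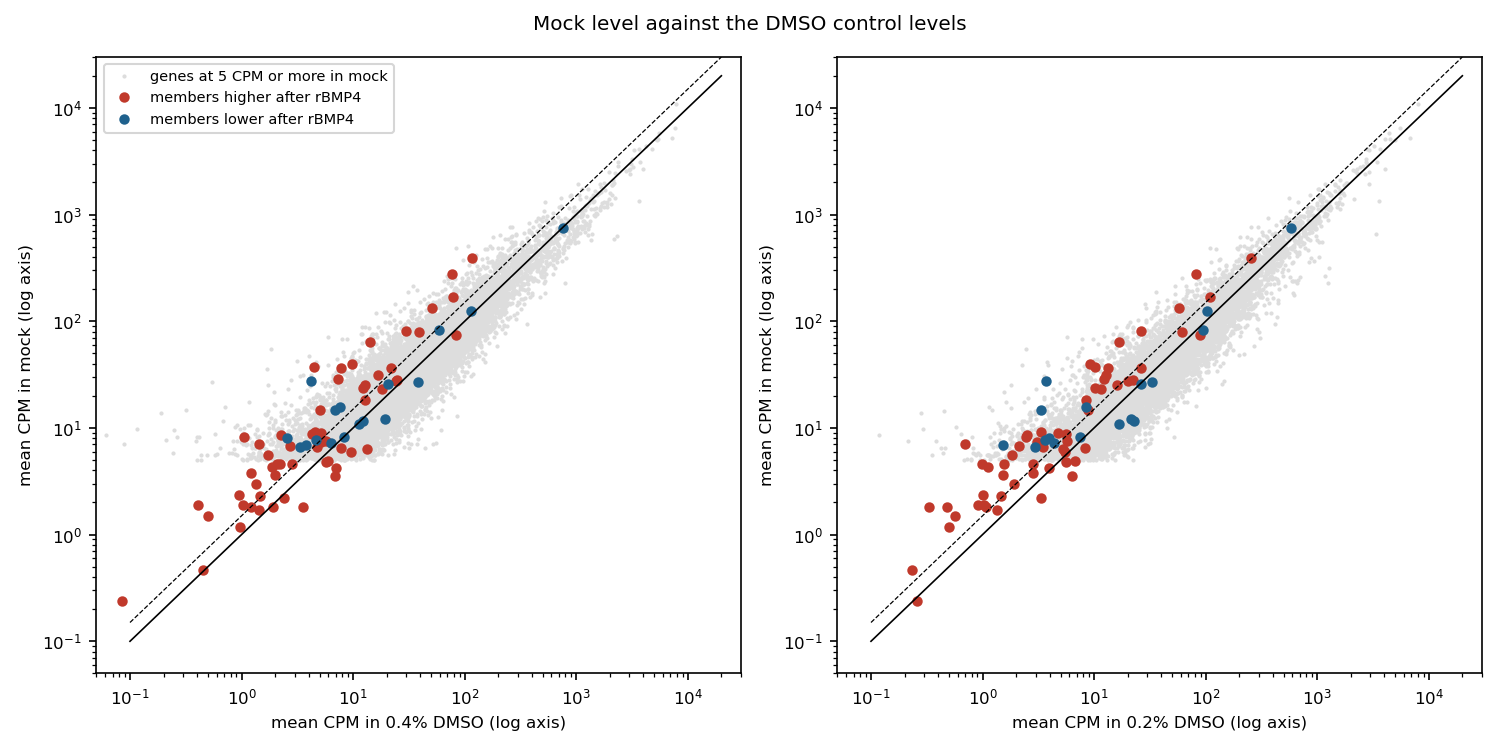
Mean CPM in mock (vertical, log axis) against mean CPM in 0.4% DMSO (left) and 0.2% DMSO (right, log axes), for the 59 higher genes (red), the 17 lower genes (blue) and other genes at 5 CPM or more in mock (grey), with a solid line at equal levels and a dashed line at 1.5-fold. Most red points lie above the solid line, with median ratios of 1.94 and 1.97 over all 59 higher genes.

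The excess of mock over DMSO was not limited to genes higher after rBMP4 alone. Among the 17 lower genes mock was above 0.4% DMSO in 7 and above 0.2% DMSO in 8, and below in 1 each (OFUSG26434 for 0.4% DMSO and OFUSG14151 for 0.2% DMSO). OFUSG26434 was at 12.4 and 11.8 CPM in mock, 7.46 and 5.15 CPM after rBMP4, 19.5 and 18.8 CPM in 0.4% DMSO and 33.4 and 31.5 CPM after DMH1, so every DMSO and DMH1 library lay above mock and rBMP4 below it. Among genes higher after both ligands it was above 0.4% DMSO in 29 of 59 and above 0.2% DMSO in 35 of 58. Among genes lower after both ligands it was above in 127 and 117 of 165. Over all genes mock was above 0.4% DMSO in 16.3% and below it in 13.5%, and above 0.2% DMSO in 9.57% and below it in 10.3%. All of these sets were chosen with mock as the control, and they share it. The lower sets were chosen for a mock level above rBMP4, so the choice itself favours a high mock level in them.

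The rBMP4 pair was also set against the DMSO controls in place of mock. The rule chose these genes on rBMP4 against mock, and mock lay above DMSO in many higher genes. Part of the order of rBMP4 and DMSO was thus fixed by the choice, and these counts are a description. Most of the higher genes were apart in the same direction. Of the lower genes that reached 5 CPM, about as many were as were not, and the remaining lower genes were not counted. The rBMP4 pair was at least 1.5-fold above 0.4% DMSO in 53 of 59 higher genes (all genes 16.5%) and above 0.2% DMSO in 54 of 59 (all genes 9.17%). The lower genes at 5 CPM or more in either pair had rBMP4 below 0.4% DMSO in 7 of 13 (all genes 12%) and below 0.2% DMSO in 6 of 12 (all genes 7.98%). The rActivin A pair also lay above 0.4% DMSO, in 18 of 35 higher genes, where 8.59% of all genes did, and below it in 2 of 35 (OFUSG00507 and OFUSG05780, all genes 7.79%). The window held mean rActivin A near mock in all of these genes, and mock itself lay above 0.4% DMSO in 23 of 38 higher genes. The rActivin A and 0.4% DMSO embryos also differed in solvent and in hours of treatment. These 18 genes therefore cannot be read as a response to rActivin A. Between the 2 DMSO controls, 0.4% DMSO was above 0.2% DMSO in 2 (OFUSG00507 and OFUSG03085) and below it in 3 (OFUSG02168, OFUSG13380 and OFUSG22949) of 29 higher genes, or 6.90% and 10.3% (all genes 4.58% and 5.6%).

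DMH1 against 0.2% DMSO is the comparison that the choice of genes did not use, and it asks whether genes set apart by added BMP4 also responded when endogenous BMP signalling was inhibited. The 59 higher genes lay on both sides of no change. Of the 58 tested, 30 had fitted log2 fold changes below 0 and 28 above, and their median was −0.03, with −0.00 over all 20695 genes tested. The quasi-likelihood test of edgeR called 9 of the 58 (15.5%) (adjusted p below 0.05, log2 fold change 0.5 or more in size), beside 11.5% of all genes. Of the 9, 4 were higher after DMH1 (all genes 5.25%) and 5 were lower (all genes 6.3%). The share called was above that of all genes by this test, and also with the other settings that kept all 4 libraries. It was 22.03% without the filter on low counts (all genes 11.04%) and 18.97% with library totals (all genes 12.01%). With the replicate number as a block it was 15.52% (all genes 8.01%), and with no minimum log2 fold change 15.52% (all genes 12.87%). No test compared these shares. OFUSG04918 was not tested because of its low counts. Of the 17 lower genes, all tested, edgeR called 0, and DESeq2 called 1 (OFUSG23343). Among the 58 higher genes DESeq2 called 12 (20.7%), 4 higher and 8 lower after DMH1, beside 15.5% of all genes. In edgeR, 4 lower genes (23.5%) had an unadjusted p below 0.05, which 41.4% of the higher genes tested and 31.3% of all genes had. For the 17 lower genes the fitted changes had a median of 0.14.

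These counts depend on the libraries. Without either DMH1 replicate, 0 of the higher genes were called, and over all genes only 11 or 14 were. Without 0.2% DMSO replicate 1 there were 28 calls (14 in each direction) and without replicate 2 there were 21 (6 higher and 15 lower), among 5538 and 5137 over all genes. The 0.2% DMSO replicates were more than 1.5-fold apart in 26 of the 59 higher genes and in 6 of the 17 lower genes. A fit of all 14 libraries called 22 of 59 (37.3%, all genes 19.2%), 16 of them lower and 6 higher, beside 11.3% and 7.86% of all genes. That fit takes its spread in part from the mock and rBMP4 libraries, which chose the genes.

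The 5 genes that were lower after DMH1 than in 0.2% DMSO and higher after rBMP4 than in mock thus lay on opposite sides of their controls with ligand and inhibitor. OFUSG22949 was at 11.4 and 8.75 CPM in 0.2% DMSO and at 2.95 and 3.04 CPM after DMH1 (log2 fold change −1.72, SE 0.264, edgeR adjusted p = 0.0148). OFUSG11197 was at 18.3 and 14.9 CPM and at 6.43 and 7.39 CPM after DMH1 (−1.23, SE 0.210, adjusted p = 0.0185 in edgeR). OFUSG01611 was at 130 and 90.1 CPM and at 54.5 and 56.4 CPM after DMH1 (−0.96, SE 0.180, adjusted p = 0.0229 in edgeR). In each of the 3 genes both DMH1 libraries were below both 0.2% DMSO libraries. OFUSG06941 was at 63.5 and 59.2 CPM in 0.2% DMSO and at 37.2 and 36.0 CPM after DMH1 (−0.72, SE 0.121, adjusted p = 0.0183 in edgeR). OFUSG13380 was at 282 and 226 CPM and at 148 and 156 CPM after DMH1 (−0.71, SE 0.132, adjusted p = 0.0224 in edgeR). Neither gene's pairs overlapped. In all 5 genes the mean mock level was above the mean 0.2% DMSO level, from 1.30 times in OFUSG06941 to 3.88 times in OFUSG11197.

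A further 4 genes were higher after DMH1 and higher after rBMP4, each compared with its own control. OFUSG10129 was at 3.52 and 3.21 CPM in 0.2% DMSO and at 14.1 and 14.1 CPM after DMH1 (log2 fold change 2.10, SE 0.218, edgeR adjusted p = 0.00812), and its rBMP4 level of 13.3 and 12.3 CPM was just below that. No other condition exceeded 3.52 CPM in this gene, so it was high with the ligand and with the inhibitor and low in all 5 remaining conditions. OFUSG18600 was at 1.86 and 1.28 CPM in 0.2% DMSO and at 6.03 and 5.07 CPM after DMH1 (1.85, SE 0.346, adjusted p = 0.0225 in edgeR). OFUSG16305 was at 1.45 and 0.792 CPM and at 5.09 and 2.90 CPM after DMH1 (1.87, SE 0.472, adjusted p = 0.0449 in edgeR). OFUSG03523 was at 12.2 and 4.75 CPM and at 26.2 and 23.6 CPM after DMH1 (1.59, SE 0.384, adjusted p = 0.0405 in edgeR). In OFUSG18600, OFUSG16305 and OFUSG03523 the mean mock level was 2.94, 3.81 and 2.14 times that of 0.2% DMSO, so the mean DMH1 level was closer to mock than to 0.2% DMSO. Each of these 9 calls was lost without DMH1 replicate 1 or 2, with adjusted p up to 0.384 for OFUSG16305 and 0.109 for OFUSG10129, and each held under the other alternatives, except that OFUSG01611, OFUSG06941 and OFUSG13380 did not reach a minimum log2 fold change of 1. The log2 fold changes moved little without a DMH1 replicate, to 2.12 and 2.09 in OFUSG10129, −1.68 and −1.74 in OFUSG22949 and −0.72 and −0.70 in OFUSG06941, and most in OFUSG16305, to 1.42 and 2.21. In each of the 9 genes they moved more without a 0.2% DMSO replicate. That shift was largest in OFUSG03523, to 2.42 without replicate 1 and 1.06 without replicate 2. With 1 DMH1 library left, the lone library is assumed to vary like those of 0.2% DMSO.

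**Figure D4:**
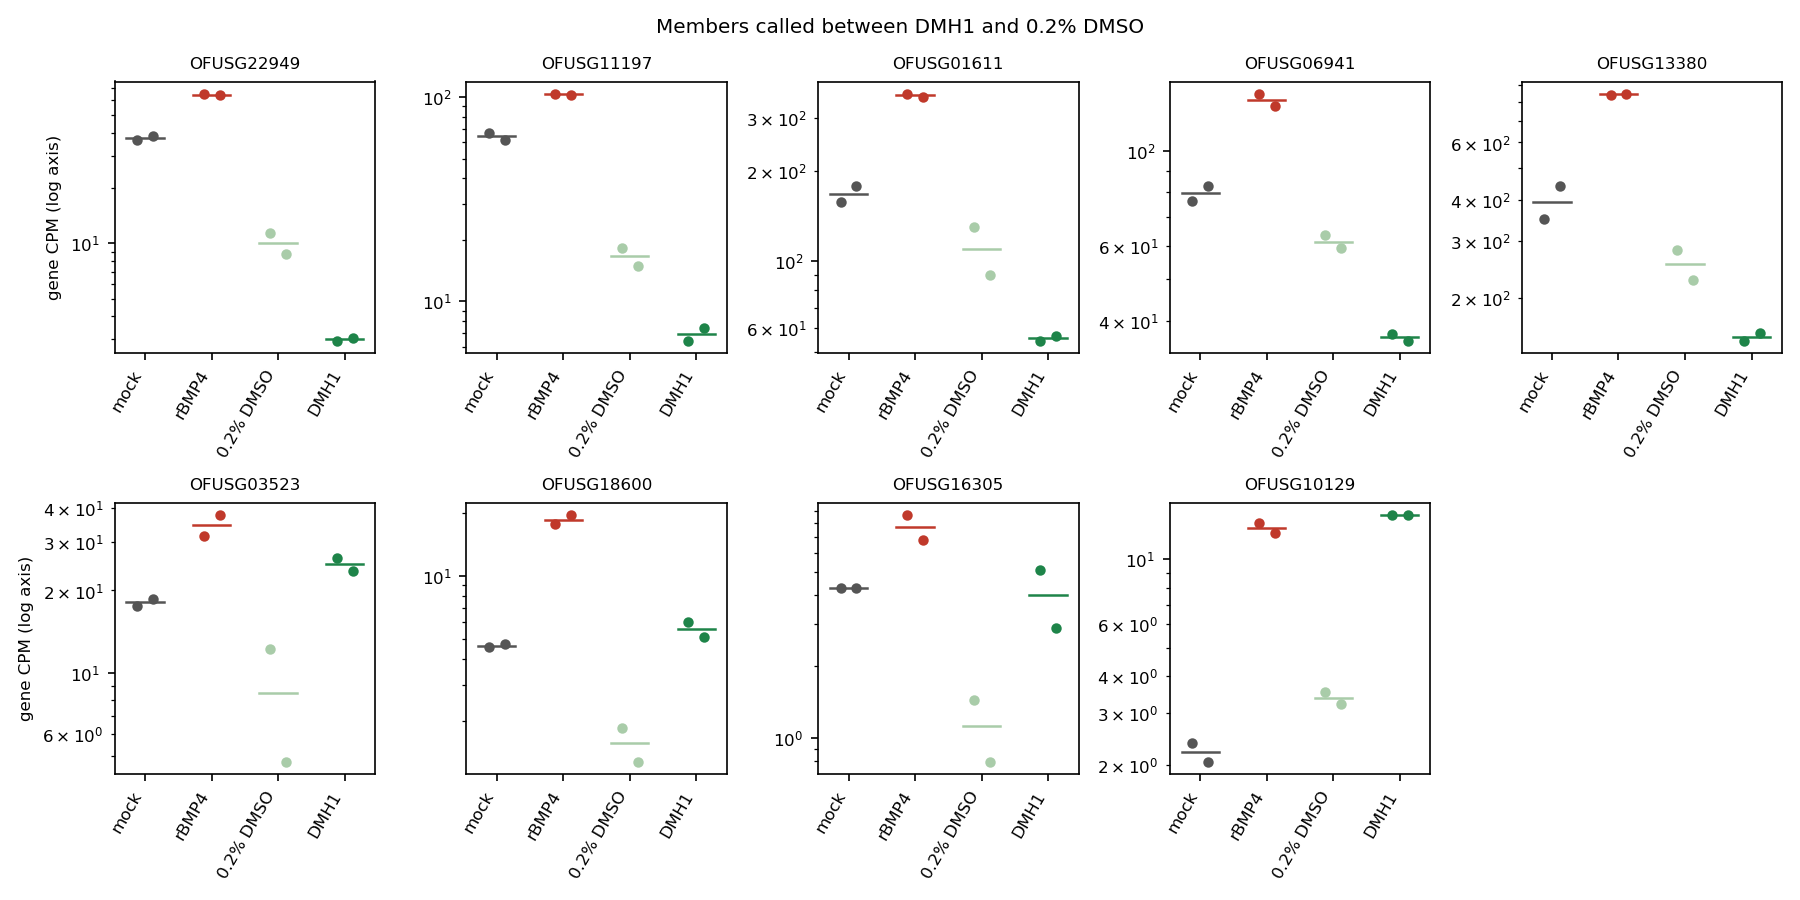
Gene CPM (log axes, a different range in each panel) in mock, rBMP4, 0.2% DMSO and DMH1 libraries of the 9 genes called between DMH1 and 0.2% DMSO, with points for the 2 libraries and lines for their mean, the 5 lower genes in the top row and the 4 higher genes in the bottom row. In OFUSG22949 the level steps down from 65.2 and 64.1 CPM after rBMP4 to 2.95 and 3.04 CPM after DMH1, and in OFUSG10129 both treatments lie above both controls.

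Some prominent genes were not called after DMH1 by the edgeR test on gene sums. OFUSG18388, at 861 and 808 CPM after rBMP4, had a log2 fold change of −0.96 (SE 0.407, adjusted p = 0.160 in edgeR), with 0.2% DMSO at 13.0 and 5.54 CPM and DMH1 at 4.14 and 5.20 CPM. Its DMH1 libraries lay below both, but 0.2% DMSO replicate 2 was close to them, and without that replicate the log2 fold change was −1.45 and without replicate 1 it was −0.22. OFUSG17661 was at 130 and 33.1 CPM in 0.2% DMSO and at 17.7 and 20.8 CPM after DMH1 (−2.05, SE 0.544, adjusted p = 0.0508 in edgeR, from 0.00059 to 0.0887 under alternatives that kept all 4 libraries). Its estimate ranged from −2.73 to −0.75 when single libraries were left out, as its 0.2% DMSO replicates differed widely. The study's own DMH1 comparison lists a transcript of this gene, OFUSG17661.2, among those lower after DMH1. The change listed there is smaller in size than the −2.05 of the gene sum here. The study's lists are of transcripts and far shorter than the 2390 genes that edgeR called here. They hold no transcript of the 9 genes called above. OFUSG02168 was at 8.96 and 8.62 CPM in 0.2% DMSO and at 4.94 and 3.31 CPM after DMH1 (−1.06, SE 0.279, adjusted p = 0.0502 in edgeR, from 0.00125 to 0.0657 under the same alternatives). OFUSG25052, lower after rBMP4, had a log2 fold change of 0.40 (SE 0.138, adjusted p = 0.100 in edgeR). OFUSG23343, also lower after rBMP4, was at 6.89 and 8.05 CPM in 0.2% DMSO and at 20.0 and 11.1 CPM after DMH1 (1.09, SE 0.297, adjusted p = 0.0551 in edgeR and 0.00808 in DESeq2).

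**Figure D5:**
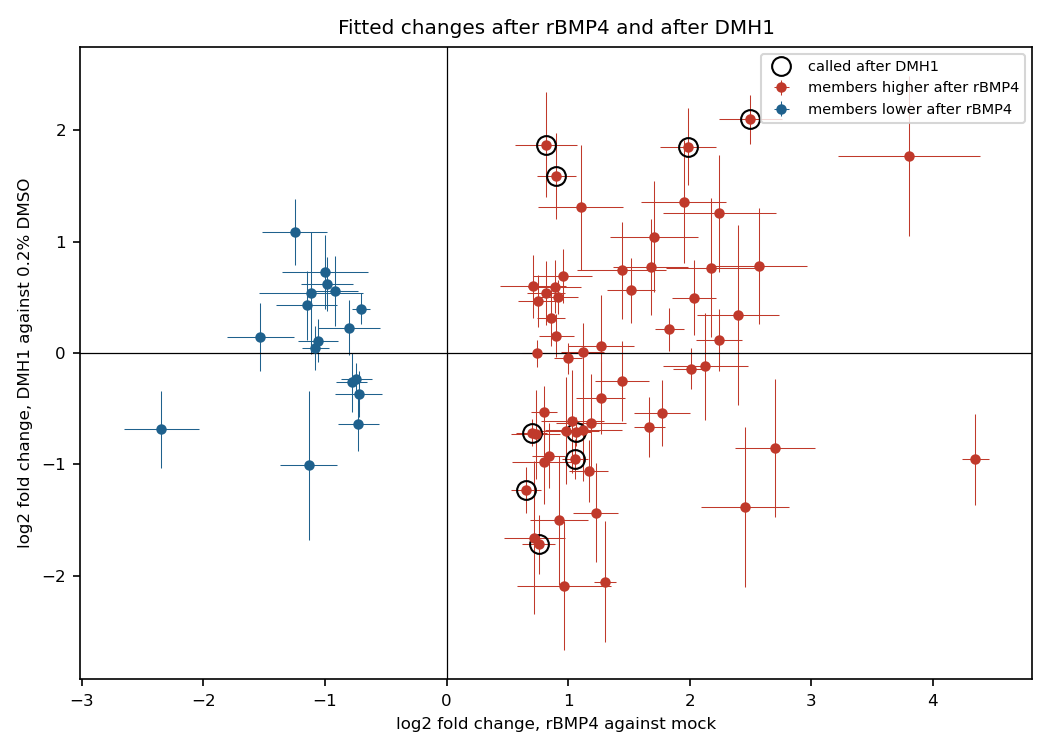
Fitted log2 fold change of DMH1 against 0.2% DMSO (vertical) and of rBMP4 against mock (horizontal) for the 58 higher genes (red) and 17 lower genes (blue) tested, with bars for standard errors and circles around the 9 genes called after DMH1. The red points spread on both sides of the horizontal line at 0, 30 below and 28 above, and OFUSG18388, at 4.35 on the horizontal axis, lies at −0.96.

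Counted with the measure of the rule, the DMH1 and 0.2% DMSO pairs were at least 1.5-fold apart in 9 of the 28 higher genes at 5 CPM or more in either pair. DMH1 was above in 3 (10.7%, all genes 4.19%), OFUSG10129, OFUSG18600 and OFUSG03523. It was below in 6 (21.4%, all genes 7.3%), namely OFUSG17661, OFUSG02168, OFUSG01611, OFUSG22949, OFUSG11197 and OFUSG06941. By this measure both shares were above those of all genes, on few genes. Among the 11 lower genes at that level the pairs were that far apart in 0. For genes higher after both ligands, edgeR called 6 of 82 tested after DMH1 (7.32%), 4 higher and 2 lower. For genes lower after both ligands it called 22 of 165 (13.3%), 5 higher and 17 lower, beside 11.5% of all genes. The median log2 fold changes of these sets were −0.25 and −0.20.

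Of the 6 listed pathway genes edgeR called 1 in the same comparison (16.7%, all genes 11.5%), the receptor gene bmpr2 (OFUSG26337), which was at 55.9 and 54.8 CPM in 0.2% DMSO and at 38.4 and 36.7 CPM after DMH1 (log2 fold change −0.53, SE 0.119, adjusted p = 0.0341). After rBMP4 it lay at 105 and 92.1 CPM and in mock at 61.4 and 62.5 CPM, a gap just short of the rule. The ligand genes bmp2/4 (0.31, SE 0.113, adjusted p = 0.114) and bmp5-8 (0.14, SE 0.120, adjusted p = 0.488), the antagonist gene chordin (−0.20, SE 0.115, adjusted p = 0.290), the receptor gene bmpr1 (−0.35, SE 0.126, adjusted p = 0.110) and the gene of the signal transducer smad1/5/8 (−0.11, SE 0.107, adjusted p = 0.521) did not pass the edgeR test. In chordin, 436.9 and 388 CPM after rBMP4 stood against 895 and 898 CPM in mock, but rActivin A, at 227 and 220.2 CPM, was lower still, which is why it is not among the 76 genes.

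Several of the genes carry consecutive identifiers. OFUSG10876 and OFUSG10877 were both higher after rBMP4, the latter at 6.51 and 6.68 CPM against 3.48 and 2.43 CPM in mock. OFUSG13379, at 20.2 and 18.7 CPM against 9.22 and 8.30 CPM, was higher together with OFUSG13380. OFUSG03084 and OFUSG03085 went in opposite directions, the former from 30.8 and 23.0 CPM in mock to 15.1 and 11.3 CPM after rBMP4 and the latter from 6.20 and 5.69 CPM to 11.2 and 11.2 CPM. A further 5 genes had a neighbour in number that rBMP4 also set apart but that did not meet the other steps, such as OFUSG05672 next to OFUSG05673, whose neighbour reached 6.88 times mock after rActivin A. Whether consecutive identifiers lie side by side in the genome was not analysed here.

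Of the 76 genes, 15 have several annotated transcripts (19.7%, and 17.5% of the 15977 genes at 1 CPM or more). In 2 of them the share of the leading transcript differed by at least 20 percentage points without overlap between the rBMP4 and mock pairs. In OFUSG15511 the transcript OFUSG15511.5 took 32.9% and 42.7% of the gene's counts in mock and 100% in both rBMP4 libraries, at a gene level of only 1.31 and 1.55 CPM. Its share was 0% and 61.2% in the 0.2% DMSO replicates, at 89 and 92 gene counts, so replicates of that control were about as far apart as rBMP4 and mock. In OFUSG26877 the transcript OFUSG26877.1 took 0% in mock replicate 2 and nearly 0% in replicate 1, and 100% in both rBMP4 libraries. Both shares rest on low counts in 1 of the groups and on how reads common to several transcripts were divided between them, so they are less certain than the gene totals. In OFUSG02168 the share of OFUSG02168.2 was 74.3% and 61.4% in mock and 80.5% and 82.9% after rBMP4. It was 30.1% and 16.1% in 0.2% DMSO and 19.4% and 18.2% after DMH1. The 2 controls thus differed more from each other than either treatment did from its own control. This last gene was added after its values were seen.

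In length the genes were close to other genes, and their median level was lower. The longest transcript of a gene had a median of 2294 bases in the higher and 2171 bases in the lower genes, beside 1949 bases over the genes at 1 CPM or more. The median of the mean level over all 14 libraries, scaled for length, was 5.26 TPM in the higher and 7.22 TPM in the lower genes and 12.6 TPM over those genes. Levels reached from 0.196 to 160.04 TPM among the higher genes and from 0.278 to 280.1 TPM among the lower genes.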

How the data were processed

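Bulk mRNA libraries of 14 blastula samples, 2 per condition, were grouped by the deposited labels. The authors trimmed the reads and quantified transcripts with Kallisto (0.46.2 in the submitters' processing notes, which also name DESeq2 1.26.0). They deposited estimated counts per transcript, not normalised between libraries, and TPM, a length-corrected measure with a common total. Strand settings are not given in the sources used here.

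Estimated counts were summed per gene and divided by library totals for CPM. For fits they were rounded, over the 27040 genes of the 31977 transcripts common to all files (31978 in the DMH1 files, 31979 in the others). DMH1 and 0.2% DMSO (4 libraries, 2 residual degrees of freedom) were compared with edgeR 4.0.16 in R 4.3.3, using filterByExpr, TMM, the quasi-likelihood test and Benjamini-Hochberg adjustment. Log2 fold changes for the ligands and SB431542 came from a joint edgeR fit of 10 libraries, without p. An exact permutation test of 2 against 2 libraries cannot go below 0.333.

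Genes were named by a rule: per direction the 6 widest separations, the 4 highest mean CPM and 2 genes on either side of the limit, then those called after DMH1, consecutive identifiers, transcript shares that differed by 20 points without overlap, and the pathway list. OFUSG02168 and genes marked in the text fall outside it. The genes and lists were chosen with earlier results of these data known. Of the 76 identifiers, 0 matched the reference gene table, so no sequences are shown. Alternatives were DESeq2 1.42.0, its size factors, library totals, no filter, all 14 libraries, a replicate block, other limits of the rule, and leaving out each library. Leave-one-out counts of pairs set apart and the alternatives for mock against DMSO were chosen after seeing the data.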

Additional observations from a re-analysis of the deposited data

How the results depend on the processing

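The number of genes the rule took was 201 at a lower separation limit and 32 at a limit of 2, 190 at a minimum of 1 CPM, 46 with a narrower rActivin A window, 45 with each rActivin A replicate inside the window, and 72 to 125 when 1 library was left out. With TPM, where the minimum is also on the TPM scale, it took 76 genes, of which 54 were shared. After DMH1, 22 higher genes were called in the fit of all 14 libraries and 0 to 28 when 1 library was left out, with medians from −0.11 to 0.0148. Of the lower genes 1 was called by DESeq2, 1 without the filter, 2 in the fit of all 14 libraries and 0 to 7 with 1 library left out, with medians from 0.0026 to 0.37. Over all genes there were 4139 calls in the fit of all 14 libraries, 998 at a minimum log2 fold change of 1, and 11 to 5538 with 1 library left out. The DMH1 and 0.2% DMSO pairs were set apart in 15 higher and 2 lower genes at the lower limit, in 4 higher genes at a limit of 2, and in 10 to 16 higher and 0 to 4 lower genes with 1 library left out. Mock was above 0.4% DMSO in 14 higher genes at a limit of 2, and with 1 library left out in 23 to 26, and above 0.2% DMSO in 18 to 25. The 9 called genes, OFUSG17661, OFUSG02168, OFUSG18388 and OFUSG25052 kept the sign of their log2 fold change after DMH1 under every alternative run. Among the other genes named by the rule, the sign turned with 1 library left out in OFUSG07809 (−0.24 to 0.40), OFUSG15696 (−0.02 to 0.31), OFUSG03084 (−0.11 to 0.37), OFUSG13379 (−0.13 to 0.17) and OFUSG23539 (−0.04 to 0.38). The replicate numbers did not pair the DMH1 and 0.2% DMSO libraries (correlation of deviations 0.018), and with the replicate number as a block 1658 genes were called, with 9 higher and 0 lower genes of the 76. With 2 libraries per group, genes at low CPM and the 9 calls after DMH1 rest on few values. The cause of these shifts was not tested.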
